A study of Sus scrofa with 6 samples.

Results

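Wnt genes were measured in primary cells freed by enzymes from the external ear (auricular) cartilage of a pig, after 24 h with GW0742 or with its solvent DMSO. GW0742 is a synthetic activator of PPARD, a nuclear receptor that senses lipids, and the series asks how PPARD bears on cartilage growth in the external ear. The cells of both groups came from 1 pig of 4 months, a cross of Duroc with Landrace x Large White, that carried the wild-type PPARD gene. There were 3 libraries with DMSO and 3 with GW0742. Whether the libraries of a group came from separate cultures is not stated. The p-values therefore reflect the spread among 6 libraries, part or all of which may be technical, and nothing here covers variation between pigs.

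The 40 genes were a list of Wnt ligands, receptors, secreted antagonists, intracellular relay proteins and targets. They were looked up by gene symbol, and where a symbol was missing by the protein name in the deposited annotation. The symbol gave 29 and the protein name 6 (WNT4, WNT5A, WNT11, DKK2, TCF7L1 and NKD1). FZD1, FZD8, DKK1, SFRP4 and NKD2 were not matched and are not analysed here. The 35 genes found correspond to 36 of the 19670 gene models listed, since NKD1 has a pair of models. Of these, 33 models had enough reads to be tested among 14146, and WNT2, LGR5 and the shorter NKD1 model did not.

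Wnt proteins are secreted, lipid-modified signals that bind Frizzled receptors. With the co-receptors LRP5 or LRP6, some of them keep beta-catenin from being degraded, and beta-catenin then works with TCF/LEF factors in the nucleus to switch on genes that include feedback inhibitors such as AXIN2. Others, with WNT5A as the textbook case, act through receptors such as ROR2 without beta-catenin. In cartilage, beta-catenin signalling is known to hold back the chondrocyte programme early in development and to promote later maturation, and secreted antagonists of the SFRP, DKK and WIF families are typical products of cartilage and connective tissue cells.

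Library depth ran from 13133980 to 16913745 estimated reads, and 3 reads, taken as the floor, correspond to between 0.178 and 0.230 CPM (counts scaled to a common library depth), which covers counting error only. The known PPAR targets ANGPTL4, PDK4, CPT1A and CAT all rose with GW0742 in edgeR. Of the chondrocyte markers, COL2A1, ACAN and FMOD were abundant, whereas MATN1 and CNMD were at or below the floor in every library. Fibroblast markers were abundant. Their sum ran from 84128 to 89944 CPM with DMSO and from 77390 to 80584 CPM with GW0742, so the groups were separate in CPM. In RPKM (reads scaled by model length and by library depth) they overlapped, at 76756 to 78067 with DMSO and 65785 to 77184 with GW0742. All 6 tested endothelial markers had an unadjusted p under 0.05 and a higher mean with GW0742, against 7.93% of all models. The endothelial list, of which 7 of 9 genes were found, summed to 63.0, 88.6 and 75.9 CPM with DMSO and to 121, 133 and 98.4 CPM with GW0742. CDH5 and VWF, also on the endothelial list, were not matched. The summed smooth muscle markers ran from 8124 to 8560 CPM with DMSO and from 6168 to 7820 CPM with GW0742, the chondrocyte markers from 6716 to 6795 and from 6161 to 6392 CPM, and ACAN fell in edgeR. At an unadjusted p under 0.05, 3 of 5 tested smooth muscle models and 3 of 8 tested chondrocyte models were lower, and 0 higher. Of 8 tested fibroblast models, 3 were lower and 1 higher. The share of all models was 8.91% lower. Immune, keratinocyte and adipocyte markers summed to at most 28.9 CPM each in any library. Which part such shifts had in the Wnt values was not tested. In these bulk libraries, a different number of cells of a type and a different amount of RNA per cell cannot be told apart.

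No tested Wnt gene passed the threshold of an adjusted p under 0.05 (edgeR, Benjamini-Hochberg over all 14146 models), and the lowest adjusted p was 0.105. Over all models, 0.262% passed, 0.184% higher and 0.0778% lower. The differences seen were modest: 5 of the 33 members (WNT5A, WNT5B, FZD2, LRP5 and CTNNB1) were higher and 4 (WNT2B, WNT4, AXIN2 and TCF7) lower with GW0742 at an unadjusted p under 0.05, together 27.3% of members against 16.8% of all models. By direction the background was 7.93% higher and 8.91% lower. The 5 became 3 without DMSO replicate 1, and the 4 became 2 without GW0742 replicate 3. DESeq2, run on the same models, called WNT5B and LRP5 higher and WNT2B lower, where it called 1.46% of all models higher and 1.65% lower. The 3 libraries of each group did not overlap for 11 members (33.3%), 5 higher and 6 lower, against 23.4% of all models (11.4% higher and 12.1% lower). The median log2 fold change of the members was 0.04, with 19 above 0 and 14 below, and that of all tested models was -0.0015.

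**Figure D1:**
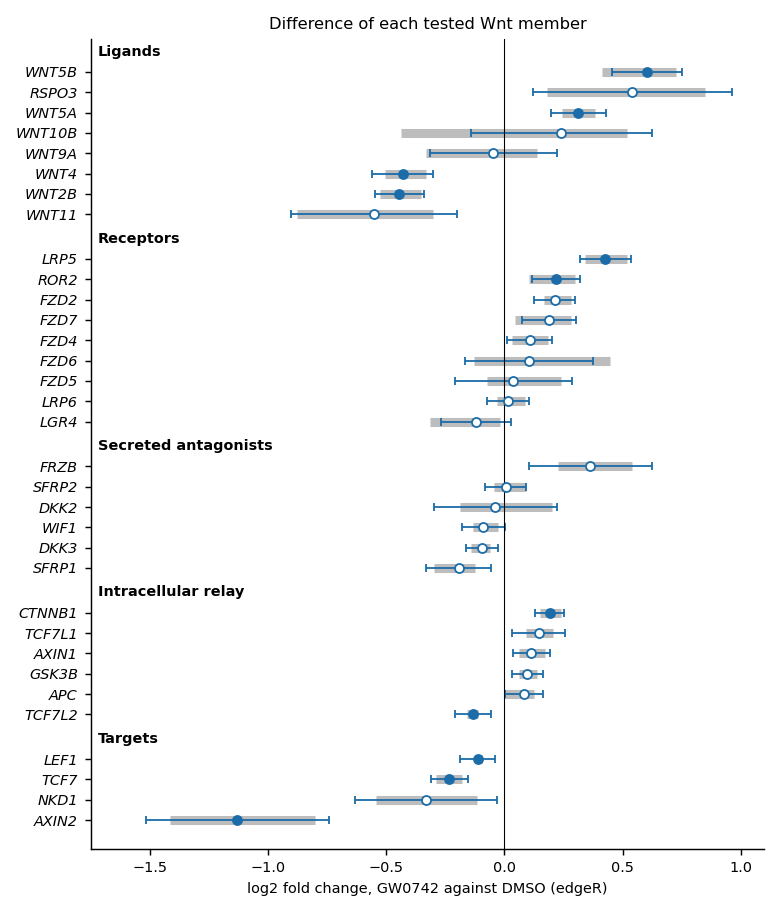
Log2 fold change of GW0742 against DMSO for the 33 tested Wnt models, grouped by role. Points are edgeR estimates with their SE, filled where the 3 DMSO and 3 GW0742 libraries do not overlap, and grey bars span the values obtained when each library is left out in turn; all 4 targets lie below 0 and 8 of 9 receptors above it.

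Levels between genes can be compared only per length, as RPKM (reads scaled by model length and by library depth). By that measure the cells made far more message for secreted antagonists than for ligands. With DMSO the 6 antagonist models summed to between 649 and 681 RPKM and the 9 ligand models to between 62.5 and 67.9 RPKM, a ratio of 10.4 ± 0.45 (SD, n = 3). SFRP2, a secreted protein related to the Frizzled ectodomain that binds Wnts, made up 87.8% ± 0.99 (SD, n = 3) of the antagonist sum. At 587 ± 21 RPKM it ranked 149 of the 19670 models. With GW0742 the ratio of the sums was 7.90 ± 1.2 (SD, n = 3), from 6.58 to 8.87, below all DMSO libraries, in which it ran from 9.94 to 10.8. An exact permutation test, which was not among the planned tests, gave a two-sided p of 0.10. This is the smallest p that 3 against 3 libraries allow. Any ratio with fully separate groups gives it, so the test adds nothing to the separation itself. The ratio moved with a single gene: without WNT5B, the ligands summed to between 18.8 and 20.4 RPKM with DMSO and between 16.7 and 21.7 RPKM with GW0742, so the groups overlapped. In CPM, which is not scaled by length, all ligands summed to between 103 and 113 with DMSO and between 95.7 and 117 with GW0742. The ligand sums, separate in RPKM, thus overlapped in CPM. The antagonist sums overlapped in CPM as well (1461 to 1575 with DMSO and 1353 to 1617 with GW0742).

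The RPKM values have limits that touch single genes. For 31 of the 36 models, which have 1 transcript, depth-scaled reads over the listed length came to between 0.83 and 1.13 times the deposited RPKM. For 5 models with several transcripts the ratio ran from 0.92 to 4.22. FZD4 stood at 4.23 RPKM as deposited and at 17.9 ± 2.0 when its reads were divided by the listed length, and WNT4 at 4.86 RPKM and at 10.1 ± 0.74 (all SD, n = 3, DMSO). Their places in the order of levels are therefore uncertain. The WNT5B model is 462 bases long and the NKD1 models are 380 and 205 bases, so these levels rest on a short part of the gene. The models of DKK2 (561 bases), AXIN2 (822 bases) and FZD2 (924 bases) are short as well, and the same limit may hold for them.

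**Figure D2:**
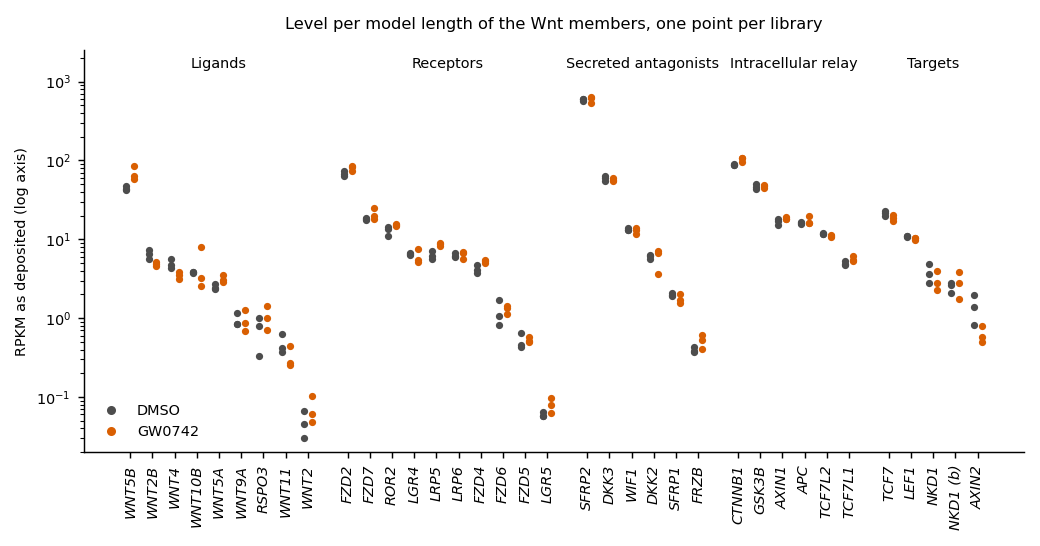
Deposited RPKM of the 36 Wnt models (log axis) in each DMSO and GW0742 library, ordered within each role by the DMSO mean; NKD1 (b) is the shorter NKD1 model. SFRP2 stands above every other member, and WNT2 and LGR5 lie near the bottom at a few reads per library.

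Among the ligands, WNT5B had the highest level per length, at 44.6 ± 2.6 RPKM with DMSO (SD, n = 3), which is 69.2% of the ligand sum. WNT2B followed at 6.48 ± 0.83 RPKM, then WNT4 at 4.86 ± 0.67, WNT10B at 3.83 ± 0.08 and WNT5A at 2.49 ± 0.19 RPKM. The libraries of these neighbours did not overlap as deposited. WNT9A, RSPO3 and WNT11 lay below 1 RPKM on average (0.95 ± 0.17, 0.71 ± 0.35 and 0.47 ± 0.14), with overlap between each and the next. WNT2 had 6, 3 and 3 reads with DMSO and 7, 5 and 4 with GW0742 and is not compared.

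The ligands did not move as a group: 4 log2 fold changes were above 0 and 4 below, with a median of 0.10. WNT5B, which signals mainly without beta-catenin and is known from growth plate cartilage, stood at 21.0, 21.1 and 23.2 CPM with DMSO and at 30.7, 27.4 and 41.2 CPM with GW0742. Every GW0742 library was above every DMSO library, and GW0742 replicate 3 was the highest. This came to a log2 fold change of 0.60 ± 0.15 (SE, edgeR adjusted p = 0.114), and DESeq2 called it (adjusted p = 0.0114). When each library was left out in turn, the log2 value ran from 0.41 to 0.73.

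WNT5A, the closest relative of WNT5B and the usual ligand of ROR2, had 12.2, 14.4 and 12.7 CPM with DMSO and 16.2, 17.7 and 14.8 CPM with GW0742. The groups were separate, with only a narrow gap between DMSO replicate 2 and GW0742 replicate 3. Its log2 fold change was 0.31 ± 0.12 (SE, edgeR adjusted p = 0.232), and DESeq2 did not call it (adjusted p = 0.403).

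A pair of ligands stood lower. WNT2B, a ligand linked to beta-catenin signalling, had 45.3, 39.9 and 50.9 CPM with DMSO and 35.5, 31.1 and 33.6 CPM with GW0742. All GW0742 libraries lay below all DMSO libraries, a mean 26.3% lower. On the log2 scale the difference was -0.44 ± 0.10 (SE, edgeR adjusted p = 0.105, the lowest of the members), and DESeq2 called it lower (adjusted p = 0.0175).

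WNT4, which acts with or without beta-catenin depending on the cell, had 14.01, 16.6 and 15.4 CPM with DMSO and 12.6, 9.85 and 11.7 CPM with GW0742. Here too the groups were separate. The fold change was -0.43 ± 0.13 on the log2 scale (SE, edgeR adjusted p = 0.162), and DESeq2 did not call it (adjusted p = 0.191).

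WNT10B, a ligand known for favouring bone over fat formation, depended on a single library. It had 5.11, 5.18 and 4.98 CPM with DMSO and 3.37, 4.12 and 10.5 CPM with GW0742. GW0742 replicates 1 and 2 were below all DMSO libraries and replicate 3 was above them all. The log2 fold change of 0.24 ± 0.38 (SE, edgeR adjusted p = 0.797) became -0.44 without GW0742 replicate 3. The same library was the highest for WNT5B and the lowest of its group for the summed endothelial markers.

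The remaining ligands had wide errors. WNT11, a ligand of the planar polarity branch, averaged 0.82 CPM in DMSO and 0.56 CPM in GW0742 libraries (log2 -0.55 ± 0.35, SE). RSPO3, an R-spondin that strengthens Wnt signals through LGR receptors, averaged 0.90 and 1.29 CPM (log2 0.54 ± 0.42, SE). WNT9A, known from joint formation, averaged 4.15 and 4.02 CPM (log2 -0.05 ± 0.27, SE). Leaving out each library in turn moved WNT11 between -0.88 (without GW0742 replicate 3) and -0.30 (without DMSO replicate 3), and RSPO3 between 0.18 (without DMSO replicate 1) and 0.85 (without DMSO replicate 2). In all 3 the libraries of the groups overlapped, and changes of the size of the SE could not be detected at this depth.

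Per length, receptors were led by FZD2, a Frizzled that binds WNT5A among others, at 68.0 ± 5.3 RPKM with DMSO (SD, n = 3). Its model is 924 bases long. FZD7, another Frizzled, followed at 18.1 ± 0.53 and ROR2, the receptor tyrosine kinase of the branch without beta-catenin, at 12.9 ± 1.6 RPKM. LGR4, an R-spondin receptor, and the co-receptors LRP5 and LRP6 stood at 6.51 ± 0.26, 6.33 ± 0.71 and 6.27 ± 0.37 RPKM, with overlapping libraries, so their order was not resolved. The Frizzled receptors FZD6, of the planar polarity branch, and FZD5 were lower, at 1.199 ± 0.461 and 0.51 ± 0.12 RPKM. LGR5, a second R-spondin receptor best known as a stem cell marker, had 1, 1 and 1 reads with DMSO and 2, 1 and 2 with GW0742, which is below the floor.

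Of the 9 tested receptors, 8 had a log2 fold change above 0 and the median was 0.11. Over all 14146 tested models, 7037 were above 0. Only LRP5 and FZD2 of the receptors had an unadjusted p under 0.05, which is 22.2% against 16.8% of all models. LRP5, which carries the signal of Wnt and Frizzled to the beta-catenin pathway and is known for its part in bone mass, had 21.0, 23.7 and 26.6 CPM with DMSO and 33.8, 29.4 and 32.8 CPM with GW0742. The groups were separate and the mean was 34.6% higher. This was a log2 fold change of 0.43 ± 0.11 (SE, edgeR adjusted p = 0.122), and DESeq2 called it (adjusted p = 0.0472). Leaving out each library in turn moved it between 0.34 and 0.52. LRP6, its close relative, did not share this pattern in size: it averaged 60.9 CPM in DMSO libraries and 61.4 in GW0742 libraries (log2 0.01 ± 0.09, SE), although the difference between both genes was not tested.

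FZD2 had 65.7, 63.8 and 73.4 CPM with DMSO and 83.7, 70.8 and 81.0 CPM with GW0742. DMSO replicate 3 lay above GW0742 replicate 2, so the groups overlapped. The log2 fold change was 0.21 ± 0.09 (SE, edgeR adjusted p = 0.264).

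ROR2 had 44.2, 58.4 and 54.5 CPM with DMSO and 60.3, 59.4 and 62.6 CPM with GW0742. The GW0742 libraries lay close together just above the highest DMSO library, and DMSO replicate 1 was well below the others (log2 0.22 ± 0.10, SE, edgeR adjusted p = 0.327). Without that library the log2 value was 0.11. The other receptors overlapped between groups in CPM: FZD7 (log2 0.19 ± 0.11), FZD4, the receptor of norrin in blood vessels (0.11 ± 0.09), FZD6 (0.10 ± 0.27), FZD5 (0.04 ± 0.25) and LGR4 (-0.12 ± 0.15, all SE). Single libraries moved several of these: FZD7 was at 0.05 without GW0742 replicate 2, FZD4 at 0.03 without DMSO replicate 3, and LGR4 at -0.32 without GW0742 replicate 1 and at -0.02 without GW0742 replicate 3. For FZD4 the measure mattered too: its deposited RPKM did not overlap, with 4.78, 4.14 and 3.77 in DMSO and 5.33, 5.44 and 4.97 in GW0742 libraries. Endothelial cells are known to express LRP5 and FZD4 as well. The endothelial marker sums given above were higher in all GW0742 libraries, and their part in the receptor values was not tested.

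**Figure D3:**
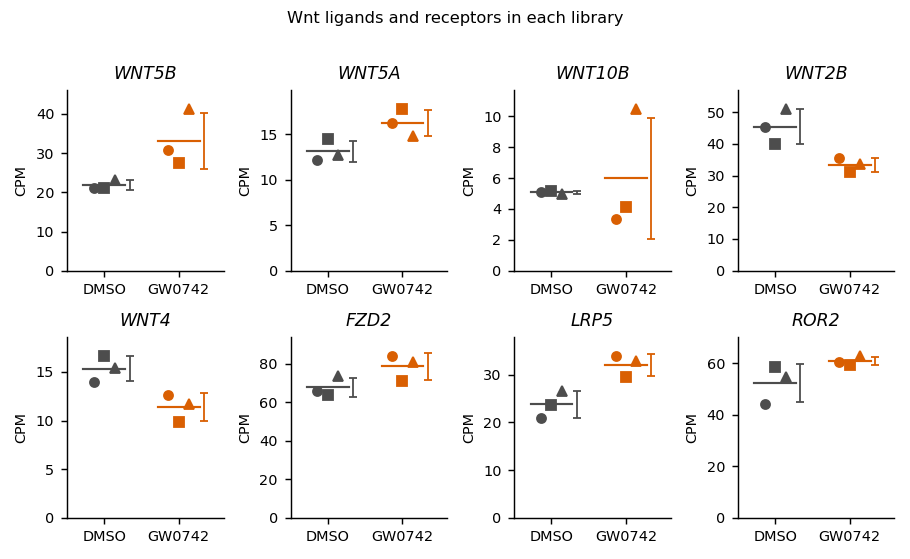
CPM of 5 ligands and 3 receptors in each library (circle, square and triangle for replicates 1, 2 and 3), with the group mean as a line and the SD as a bar (n = 3 libraries). WNT5B, WNT5A, LRP5 and ROR2 are higher and WNT2B and WNT4 lower in all GW0742 libraries, while WNT10B is set apart by GW0742 replicate 3.

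None of the 6 tested secreted antagonists differed at an unadjusted p under 0.05, and in none were the groups separate. Over all models, 16.8% had such a p and 23.4% had separate groups, so 6 models are too few to set the antagonists apart. SFRP2 had 1263, 1395 and 1352 CPM with DMSO and 1432, 1176 and 1416 CPM with GW0742, so GW0742 replicate 2 was the lowest and replicate 1 the highest of all libraries. The log2 fold change was 0.01 ± 0.09 (SE, edgeR adjusted p = 0.982), between -0.04 and 0.09 when libraries were left out.

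DKK3, an unusual member of the Dickkopf family, was next in level at 59.5 ± 4.4 RPKM with DMSO (SD, n = 3), and WIF1, which binds Wnts directly and is typical of cartilage, stood at 13.3 ± 0.47 RPKM. DKK3 averaged 155 and 145 CPM (log2 -0.10 ± 0.07, SE) and WIF1 21.3 and 20.01 CPM (log2 -0.09 ± 0.09, SE). A second model with the WIF1 protein name, of 464 bases, gave a log2 value of -0.06, and the sum of both gave -0.08. DKK2, which blocks LRP5 and LRP6, had 3.62, 3.76 and 3.30 CPM with DMSO and 2.14, 4.12 and 4.05 CPM with GW0742, where replicate 1 was low (log2 -0.04 ± 0.26, SE). SFRP1, at 1.98 RPKM, far below SFRP2, gave -0.19 ± 0.14 and FRZB, another relative of SFRP2 first found in cartilage, gave 0.36 ± 0.26 (log2, SE) at an average of 1.29 CPM with DMSO.

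**Figure D4:**
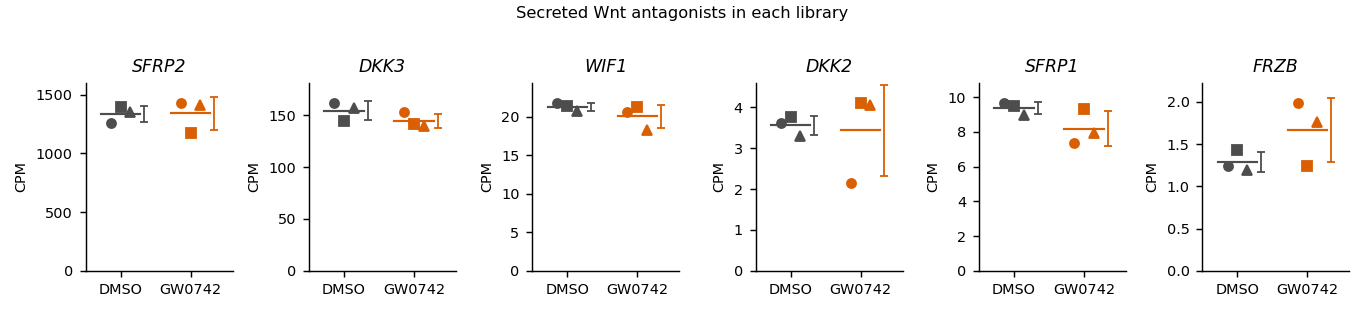
CPM of the 6 tested secreted antagonists in each library (symbols for replicates 1, 2 and 3 as circle, square and triangle), with group mean and SD (n = 3 libraries). The groups overlap in every panel.

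Of the relay proteins, CTNNB1 (beta-catenin) was the most abundant at 89.0 ± 0.99 RPKM with DMSO (SD, n = 3), followed by the kinase GSK3B at 46.6 ± 3.1 RPKM. AXIN1 and APC, the scaffolds of the complex that degrades beta-catenin, stood at 16.6 ± 1.4 and 16.2 ± 0.41 RPKM and overlapped. The nuclear factors TCF7L2 and TCF7L1 stood at 11.9 ± 0.16 and 4.96 ± 0.32 RPKM.

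CTNNB1 message had 320, 324 and 319 CPM with DMSO and 388, 370 and 342 CPM with GW0742. The DMSO libraries were almost level, and all GW0742 libraries were above them. In edgeR the log2 fold change was 0.19 ± 0.06 (SE, edgeR adjusted p = 0.182), a mean 14.3% higher, and DESeq2 gave an adjusted p of 0.0961. Beta-catenin is regulated mainly as a protein, which these libraries do not measure. GSK3B (log2 0.10 ± 0.07), AXIN1 (0.11 ± 0.08), APC (0.08 ± 0.08) and TCF7L1 (0.14 ± 0.11, all SE) overlapped between groups. A second model with the APC protein name gave 0.01, and the sum of both 0.05. TCF7L2 was the exception in sign: it had 29.02, 30.6 and 29.6 CPM with DMSO and 28.3, 26.7 and 26.4 CPM with GW0742, separate by a small gap (log2 -0.13 ± 0.08, SE, edgeR adjusted p = 0.423).

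All 4 tested targets had a log2 fold change below 0, with a median of -0.28. Over all 14146 tested models, 7109 were below 0. The largest difference among the 4 targets was that of AXIN2, the feedback inhibitor that is the most widely used readout of beta-catenin signalling. It had 1.25, 1.80 and 0.72 CPM with DMSO and 0.54, 0.69 and 0.46 CPM with GW0742. These are few reads: 21, 24 and 12 with DMSO and 7, 11 and 7 with GW0742. The groups were separate, but DMSO replicate 3 and GW0742 replicate 2 nearly met. AXIN2 thus had a log2 fold change of -1.13 ± 0.39 (SE, edgeR adjusted p = 0.200), a mean 55.4% lower, and it lay between -1.42 and -0.80 when libraries were left out. DESeq2 did not call it (adjusted p = 0.456).

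TCF7, a TCF/LEF factor that is itself a target of the pathway, had 94.0, 83.1 and 91.5 CPM with DMSO and 76.6, 81.9 and 70.2 CPM with GW0742. The groups were separate by a narrow gap between the replicates numbered 2. For TCF7 the log2 fold change was -0.23 ± 0.08 (SE, edgeR adjusted p = 0.197). LEF1, the related factor, had 27.7, 28.7 and 27.3 CPM with DMSO and 25.3, 25.9 and 26.1 CPM with GW0742, which is a small difference in a gene with a narrow spread (log2 -0.11 ± 0.07, SE, edgeR adjusted p = 0.485). NKD1, a feedback inhibitor that binds Dishevelled, had 1.899, 1.13 and 1.44 CPM with DMSO and 1.15, 1.496 and 0.91 CPM with GW0742 in its longer model, with overlap (log2 -0.33 ± 0.30, SE), and its log2 value ran from -0.54 without GW0742 replicate 2 to -0.12 without DMSO replicate 1. Its shorter model had 9, 6 and 10 reads with DMSO and 10, 9 and 5 with GW0742.

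**Figure D5:**
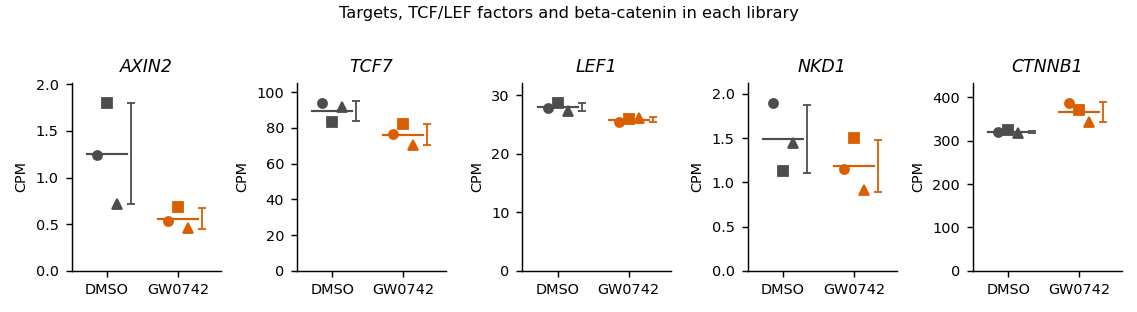
CPM of the tested targets AXIN2, TCF7, LEF1 and NKD1 (longer model), and of CTNNB1, in each library (circle, square and triangle for replicates 1, 2 and 3), with group mean and SD (n = 3 libraries). AXIN2, TCF7 and LEF1 are lower in all GW0742 libraries and CTNNB1 is higher; AXIN2 and NKD1 rest on few reads.

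Other genes widely used as targets of the pathway did not all share the sign of these 4. Of 11 tested models of that wider group, 8 had a log2 fold change above 0 and 3 below, with a median of 0.19, and none passed the adjusted threshold in edgeR. The groups did not overlap for 6 of the 11, 3 higher and 3 lower (54.5%, against 23.4% of all models). At an unadjusted p under 0.05, 2 were higher and 1 lower, together 27.3% against 16.8% of all models. The higher ones, named after their values were seen, were CD44, a hyaluronan receptor (log2 0.19 ± 0.07, SE, edgeR adjusted p = 0.238), and the CCN4 model with more reads (0.26 ± 0.08, adjusted p = 0.188), both with separate groups. A second model with the CCN4 protein name was not counted among the 11, and its value is not given here. The lower gene was CCN5, a matricellular protein also known as WISP2. It had 14.4, 9.612 and 14.5 CPM with DMSO and 6.89, 7.48 and 9.605 CPM with GW0742, with only a sliver between the groups (log2 -0.68 ± 0.20, SE, edgeR adjusted p = 0.151).

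Beyond the members, 94 further genes of the pathway were listed, of which 77 were found as 80 models and 68 models were tested. None passed the adjusted threshold in edgeR. The unadjusted p was under 0.05 for 9 models with a higher mean (13.2%, against 7.93% of all models) and for 6 with a lower mean (8.8%, against 8.91%), and the median log2 fold change was 0.04. DESeq2 called 1 higher and 2 lower (1.5% and 2.9%, against 1.46% and 1.65% of all models). The gene with the lowest adjusted p was WNT16, a ligand known from bone and joints, at 6.11, 5.56 and 5.997 CPM with DMSO and 10.6, 9.48 and 9.87 CPM with GW0742. Its libraries were tight and well apart (log2 0.76 ± 0.13, SE, edgeR adjusted p = 0.0651), and DESeq2 called it (adjusted p = 0.0129).

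ZNRF3, a ligase that removes Frizzled receptors from the surface, had 1.72, 1.73 and 1.499 CPM with DMSO and 2.30, 3.49 and 2.09 CPM with GW0742, a log2 fold change of 0.68 ± 0.27 (SE, edgeR adjusted p = 0.253). SFRP5, a secreted antagonist related to SFRP1, had 3.86, 4.51 and 4.56 CPM with DMSO and 6.89, 7.42 and 5.36 CPM with GW0742, a log2 fold change of 0.61 ± 0.18 (SE, edgeR adjusted p = 0.164). In both genes every GW0742 library was above every DMSO library.

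On the lower side, next to CCN5, were a transcription factor of the calcium branch and a kinase. NFATC2, the factor, had 61.9, 60.9 and 63.2 CPM with DMSO and 54.8, 47.6 and 45.9 CPM with GW0742, a log2 fold change of -0.33 ± 0.08 (SE, edgeR adjusted p = 0.114). CSNK1A1, the casein kinase that primes beta-catenin for degradation, had 211, 206 and 205 CPM with DMSO and 177, 172 and 182 CPM with GW0742, a log2 fold change of -0.23 ± 0.05 (SE, edgeR adjusted p = 0.110). DESeq2 called both lower (adjusted p = 0.0413 and 0.0258), and in both the groups were separate.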

How the data were processed

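Poly(A) RNA of 3 DMSO and 3 GW0742 libraries was read on an Ion Proton instrument, per the labels. The deposited library tables give an estimated count of reads, a length and an RPKM per gene model, per the file headers. The build was Sscrofa 10.2, per the submitters' processing notes, and no aligner, counter or annotation release is given in the sources used here. No strand-marking step is named, so overlapping genes on opposite strands may share reads. Reads of near-identical models may be split between them. For models with several transcripts the deposited RPKM may be a sum over transcripts, which was not tested, while 1 length is listed.

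After rounding, filterByExpr (minimum count 10) and TMM scaling, GW0742 was tested against DMSO in edgeR 4.0.16 (quasi-likelihood, two-sided, R 4.3.3), with Benjamini-Hochberg adjustment over all 14146 models and a threshold of 0.05. CPM uses TMM-scaled totals. SE is the log2 fold change divided by the root of F. Alternatives were median-of-ratios factors, DESeq2 1.42.0 on the filtered models, no filter, limma 3.58.1 on log2(RPKM + 1) and log2(RPKM + 0.1), the replicate number as a block, each library left out, and summed models of 1 protein name. The edgeR test was also run on simulated counts with an assumed spread, which does not show its power for the differences reported here. Symbols came from a gene name table, which named 11147 of 19670 models.

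The members, lists and tests were chosen with earlier results of these data known. The naming rule covered all members, those with an unadjusted p under 0.05 or a DESeq2 call with each library, and of the wider list up to 3 per direction with the largest change at an unadjusted p under 0.05 and a mean of at least 1 CPM. Library values of other members were added after their values were seen. A planned promoter motif search was not run, and no sequences or coordinates are used here.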

Additional observations from a re-analysis of the deposited data

How the results depend on the processing

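The count of Wnt members past the adjusted threshold was 0 higher and 0 lower in edgeR under every alternative run, and in limma. DESeq2 called 2 higher and 1 lower, and in the wider list 1 higher and 2 lower. Over all models edgeR called 26 higher and 11 lower. DESeq2 called 207 and 234, and without the filter there were 13 and 3. Limma on log2(RPKM + 1) gave 19 higher and 3 lower, and on log2(RPKM + 0.1) 17 and 4. With libraries left out in turn, edgeR called from 6 to 54 higher and from 0 to 47 lower: 6 and 0 without DMSO replicate 1 and 54 and 47 without GW0742 replicate 3. For these settings the cause was not tested. The count of members at an unadjusted p under 0.05 ran from 3 to 5 higher and from 2 to 4 lower without a library. With the replicate block, 10 models were higher and 0 lower, and members stayed at 0 and 0. Libraries of the same number correlated at -0.103 to 0.005 in their deviations from the group means, and those of different numbers at -0.037 to 0.068. Whether libraries of the same number shared a culture or a preparation is not stated. Correlations this small on both sides cannot decide it. Of the log2 fold changes of members under the alternatives, 379 kept direction and side of the threshold, 3 (WNT2B, WNT5B and LRP5) passed it in DESeq2, and 17 changed sign, all when a library was left out. Their ranges over the left-out libraries were -0.33 to 0.14 for WNT9A, -0.44 to 0.52 for WNT10B, -0.075 to 0.24 for FZD5, -0.13 to 0.45 for FZD6, -0.0293 to 0.0887 for LRP6, -0.19 to 0.20 for DKK2, -0.0418 to 0.0916 for SFRP2 and -0.00105 to 0.126 for APC. Values of AXIN2, NKD1, WNT11, RSPO3 and FRZB rest on few reads, and WNT2 and LGR5 had too few to test.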
